A study of Macaca mulatta with 5 samples.

Results

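Heart muscle genes and heart transcription factors were followed through a culture of rhesus macaque embryonic stem cells directed towards serotonin neurons. The set holds 8 genes taken by symbol from the platform's probe annotation, MYL7, MYL4, MYH6, TNNT2, ACTC1, HAND1, TBX5 and MEF2C, of 14132 named genes on the array. All 8 have a probe set, and together they hold 17 of the 24956 probe sets, array controls left out, that carry exactly 1 gene symbol. Each of 5 stages of the cell line 366.4 was represented by 1 array, so no value has a replicate and no difference could be tested. The ESC stage was undifferentiated cells of passage 13 kept on mouse embryonic fibroblasts. The EB stage was embryoid bodies collected after 6 to 8 days. N1 was neurospheres after 7 to 9 days in medium with N2 supplement, N2 was cells expanded for 7 to 9 days with FGF4 in the same kind of medium, and N3 was cells matured without FGF4 on a growth factor reduced surface. All stages come from 1 stem cell line, no stage is a sorted population, and no heart-inducing agent is named for any of them.

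Heart muscle contracts through sarcomeres, in which thick filaments of myosin heavy and light chains pull on thin filaments of actin, with the troponin complex acting as the calcium switch. In the embryo the first contractile genes are switched on by a small group of transcription factors of the GATA, T-box, HAND, NKX and MEF2 families. Embryoid bodies are known for forming patches of beating heart muscle without any added factor. Several of these sarcomere genes are also used for a time by embryonic skeletal muscle.

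Signals are array intensities rescaled so that each array has a 2% trimmed mean of 500, and a signal below 100, called the floor here, counts as not told apart from background. Ratios were formed after raising values to that floor, so a ratio with 1 side below it is written as "at least". The 5 arrays differed in their control ratios, a measure of RNA and labelling quality. The 3' to 5' signal ratio of the actin control was 1.73 in ESC and 15.2 in EB, then 5.43, 25.2 and 8.63 in N1, N2 and N3, and the GAPDH ratio was highest in N2 at 7.1 and between 1.69 and 2.78 on the other arrays. Of 17 tag control probe sets the brightest reached 113 in ESC and 41.3 to 88 on the other arrays. POU5F1, the core pluripotency factor, was 28621 in ESC and 14.7 in N3, and STMN2, a neuronal tubulin regulator, went from 935 in ESC to 24814 in N3. Of 7 serotonin neuron genes with a probe set, 3 lay at 100 or more in N2 and in N3, the stages labelled as serotonin neurons. These were GATA3 (1436 and 895), GATA2 (128 and 107) and the transporter gene SLC18A2 (141 and 150.3), all 3 also used by other cells. Of all 14132 named genes, 9888 lay at 100 or more in N2 and 9950 in N3. TPH1 and TPH2, which encode the serotonin-forming enzymes, stayed below 100 on every array, and the factor FEV was 66 in N2 and 85.3 in N3.

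The thick filament members were low in ESC, highest in EB and lower afterwards. MYL7 encodes the regulatory myosin light chain of the atrium, which is among the earliest contractile proteins of the heart tube. Its 1 probe set read 324 in ESC and 9531 in EB, then 7044, 1656 and 1833 in N1, N2 and N3. The EB and N1 arrays were high, the N2 and N3 arrays lay between them and ESC, and the step from ESC to EB was 29.4-fold. In these bulk samples fewer heart cells and less of the RNA per cell cannot be told apart.

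MYL4, the essential light chain of the atrium and of embryonic muscle, read 147 in ESC and 1888 in EB, then 1402, 248 and 1164 in N1, N2 and N3. It was 12.9-fold higher in EB than in ESC, 5.65-fold lower in N2 than in N1, and 4.69-fold higher in N3 than in N2. N3 thus stood at 61.7% of the EB signal for MYL4 and at 19.2% for MYL7, although both light chains had kept 73.9% to 74.3% of it in N1. The 1 probe set of MYL4 has a name ending in _s_at, and whether it also binds other transcripts was not tested.

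MYH6, the fast atrial myosin heavy chain, has 3 probe sets. The brightest read 14.1 in ESC and 2498 in EB, then 1197, 855 and 1232 in N1, N2 and N3. It was at least 25-fold higher in EB than in ESC, 2.09-fold lower in N1 than in EB, and 1.44-fold higher in N3 than in N2. Another probe set gave the same order for ESC and EB but a different course afterwards, with 10.2 in ESC and 664 in EB, then 256, 361 and 565 in N1, N2 and N3, so that its lowest value after EB was in N1 and not in N2. The last probe set stayed between 15.6 and 115 and reached the floor only in ESC and N3. The partner heavy chain gene MYH7 was not analysed here, and whether the MYH6 probe sets also bind its transcript was not tested.

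**Figure D1:**
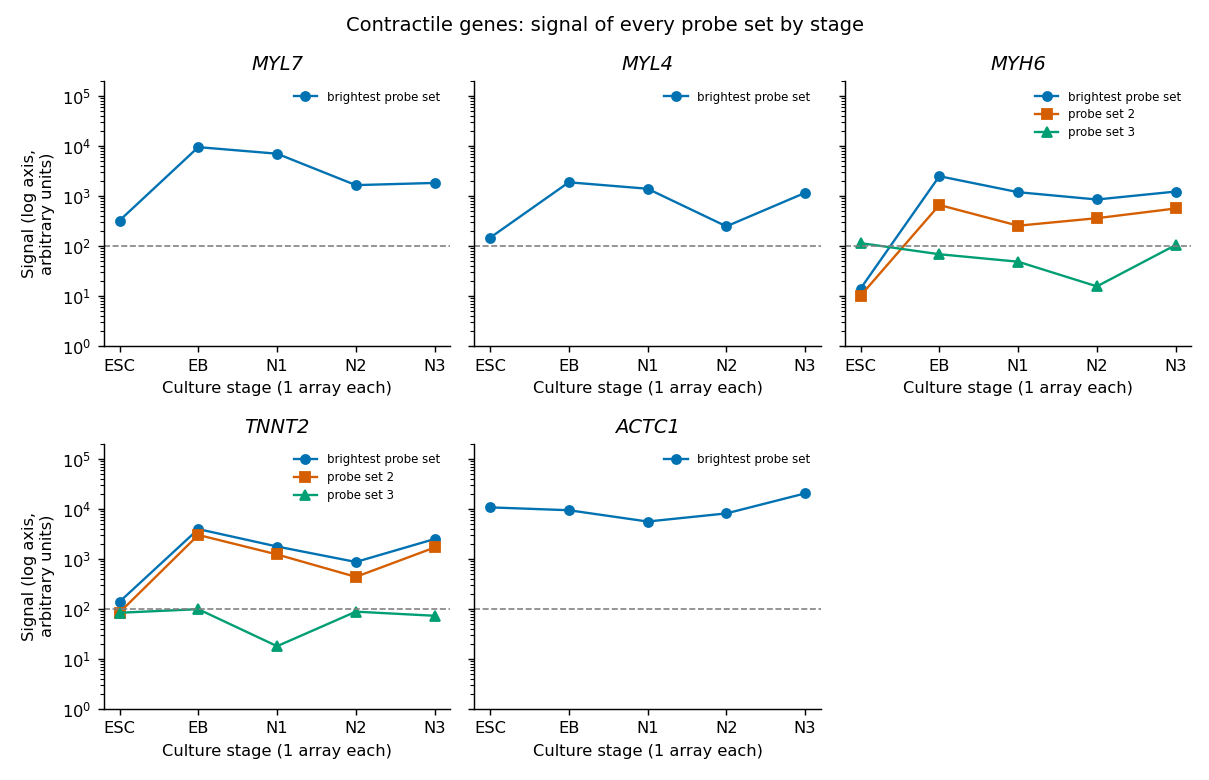
Signal of every probe set of the 5 contractile genes on the 5 arrays (log axis, arbitrary units; x axis, stage with 1 array each; dashed line, the floor of 100). MYL7, MYL4, MYH6 and TNNT2 are highest in EB on their brightest probe set, while ACTC1 is high throughout and highest in N3.

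Close relatives of the thick filament members behaved differently. MYL2, the regulatory light chain of the ventricle, was 253 in ESC and 77 in EB, then 179, 152 and 229 in N1, N2 and N3, so it was at least 2.53-fold lower in EB than in ESC on the step where MYL7 was higher. Its other probe set was below 100 on all arrays. MYL3, the essential light chain of the ventricle and of slow muscle, was 52.6 in ESC and 396 in EB, then 971, 56.8 and 69.1 in N1, N2 and N3. The high MYL3 signal was thus limited to EB and N1, and unlike MYL4 it lay below the floor in N3. The skeletal heavy chain MYH3 and light chain MYL1 are given with the skeletal muscle genes.

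The thin filament members split. TNNT2, the heart troponin T that anchors the troponin complex to tropomyosin, read 138 in ESC and 3926 in EB, then 1759, 864 and 2487 in N1, N2 and N3 on its brightest probe set. A further TNNT2 probe set gave 84.2, 3001, 1221, 435 and 1682 over the same 5 stages. Its name differs from that of the brightest only in its ending, so the 2 may not be independent readings. Both were highest in EB, lowest after EB in N2, and 2.88-fold and 3.87-fold higher in N3 than in N2. The remaining probe set was below 100 on every array, at 17.9 to 98.2. In N3 the brightest probe set of TNNT2 stood at 63.4% of its EB signal, close to the 61.7% of MYL4.

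ACTC1, the actin of heart muscle and of fetal skeletal muscle, did not share the step into EB. Its 1 probe set read 10669.8 in ESC and 9359.8 in EB, then 5561, 8083 and 20334 in N1, N2 and N3. The signal was high on every array, lowest in N1, and 2.52-fold higher in N3 than in N2. The difference between EB and ESC was 1.14-fold, with EB the lower, whereas the other 4 contractile members differed by 12.9-fold or more. Smooth muscle genes were also high in ESC. On the brightest probe sets at least 7 of 8 lay at 100 or more on every array, beside 9551 to 10325 of all 14132 named genes. Their summed signal was 79760.1 in ESC against 8004 to 20497 on the other arrays. Within that list the actin ACTG2 was 24431 in ESC and 629 in EB. How much of the ACTC1 signal in ESC came from other actin transcripts or from the mouse feeder cells was not tested, and ACTA1 and ACTA2 were not analysed here.

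The 3 transcription factors each followed a course of their own. HAND1 is a basic helix-loop-helix factor of the early left ventricle that is also strong in extraembryonic mesoderm and trophoblast. Its 1 probe set read 239.7 in ESC and 8193 in EB, then 3897, 1295 and 279.6 in N1, N2 and N3. Each step after EB was lower by 2-fold or more, by 2.1-fold, 3.01-fold and 4.63-fold in turn, and N3 differed from ESC by 1.17-fold. HAND1 kept 3.41% of its EB signal in N3, the lowest share of the 8 genes. Its relative HAND2, which patterns the right ventricle and also sympathetic neurons and limb buds, was 16.4 in ESC and 435 in EB, then 705, 408 and 348 in N1, N2 and N3, and so lay within 2-fold of its EB signal at the last stage.

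TBX5, the T-box factor of the heart and forelimb, was weak. Its brightest probe set read 44.8 in ESC and 148 in EB, then 216, 370.2 and 156 in N1, N2 and N3. It was highest in N2, where it stood at 2.5-fold its EB signal, and 2.38-fold lower in N3 than in N2. The other 2 probe sets were below 100 on every array, at 3.61 to 93.4. The related TBX3, which marks the conduction system and many other tissues, was 43.7 in ESC and 1842 in EB, then 1044, 1097 and 433 in N1, N2 and N3, and another of its probe sets had a log2 ratio of 1.48 in EB against ESC where the brightest had at least 4.2. TBX2 reached 100 only in N1 and N2, with a highest signal of 219, and TBX4 was below 100 throughout.

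MEF2C is a MADS-box factor that activates contractile genes in heart and skeletal muscle and also acts in neurons. Its brightest probe set read 245 in ESC and 1069.9 in EB, then 826, 885 and 1957 in N1, N2 and N3. N3 was the highest of the 5 arrays, 2.21-fold above N2 and 1.83-fold above EB. A second probe set gave 222, 538, 344, 389 and 711 over the 5 stages, and the next gave 57.6, 166, 172, 125 and 349, so 3 of 4 probe sets were highest in N3 at 100 or more. The remaining one was below 100 on all arrays. Among its relatives, MEF2A was 1026 in ESC, 2419 in EB and 2857 in N3. However, its other probe sets had log2 ratios of -0.24, 1.77 and, with EB below the floor, -0.58 or lower in EB against ESC. MEF2D was 305, 437 and 747 on the same arrays, with log2 ratios of -0.41 and -0.43 in EB against ESC on its other probe sets, and MEF2B lay between 88.3 and 162.

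**Figure D2:**
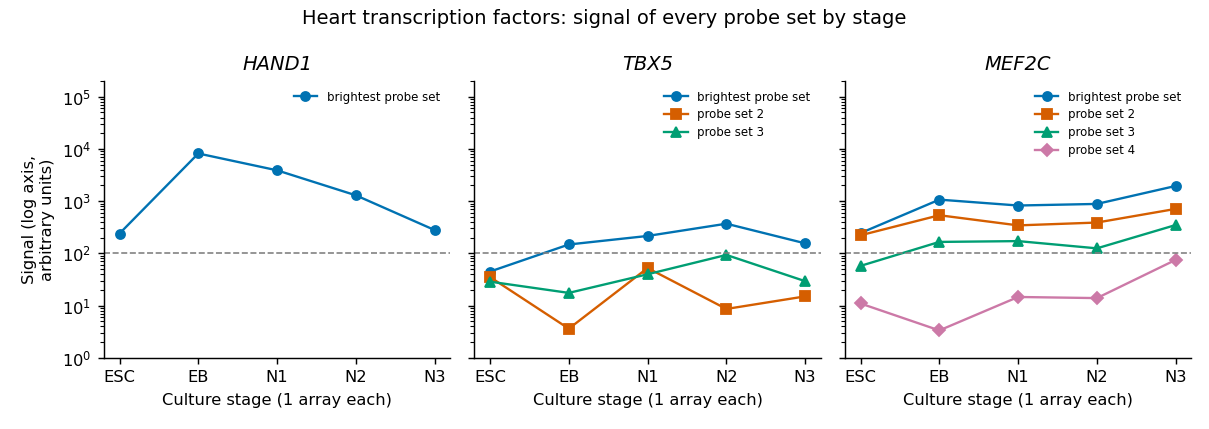
Signal of every probe set of HAND1, TBX5 and MEF2C on the 5 arrays (log axis, arbitrary units; x axis, stage with 1 array each; dashed line, the floor of 100). HAND1 peaks in EB at 8193 and is lower at each later stage, TBX5 peaks in N2 at 370.2, and MEF2C is highest in N3 at 1957.

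The comparison of EB with ESC asked which genes differed once the cells had left the feeder layer and aggregated. On the brightest probe set, 6 of 8 members exceeded their ESC signal by 2-fold or more in EB and 0 lay below it by that much, where 12.1% of 10978 measured genes were higher by that margin and 11.8% were lower. The 6 were MYL7, MYL4, MYH6, TNNT2, HAND1 and MEF2C. HAND1 was 34.2-fold higher and MEF2C, the least of the 6, 4.37-fold. MYH6 has only a bound here and cannot be ranked against HAND1. The median log2 ratio of the members was 4.16, beside -0.06 over all measured genes, and the SD between probe sets of the same gene in this comparison was 0.75. TBX5 was at least 1.48-fold higher.

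From EB to N1, 3 of 8 members were lower by 2-fold or more and 0 higher, against 2.2% lower and 5.15% higher among 10335 measured genes. These were TNNT2 (2.23-fold), HAND1 and MYH6. Scaling the arrays to the hybridisation controls, which moved the median of all measured genes from -0.02 to 0.41, gave 0 lower members and 1 higher, TBX5. In that scaling the log2 ratios of MYL7, MYL4 and MEF2C changed sign to 0.03, 0.04 and 0.09. That scaling moves the log2 ratios of all members by the same amount, so it bears on their counts and not on their order.

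From N1 to N2, 4 of 8 members were 2-fold or more lower and 0 higher, beside 6.53% lower and 5.06% higher of 10552 measured genes. MYL4 was 5.65-fold lower, MYL7 4.25-fold, HAND1 3.01-fold and TNNT2 2.04-fold. With equal medians on all arrays 3 members were lower, with TNNT2 at a log2 ratio of -0.93, beside 545 of 10541 measured genes. Scaling to the hybridisation controls gave 5 lower, with MYH6 added at -1.06, beside 2543 of 10915 measured genes. ACTC1 was 1.45-fold higher and MEF2C 1.07-fold higher, and both changed sign in the scaling to hybridisation controls, at log2 ratios of -0.04 and -0.48, where the median of all measured genes was -0.57. The N2 array had the highest 3' to 5' control ratios, and the part of RNA quality in these lower signals was not tested.

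From N2 to N3, the members differed in direction. MYL4 (4.69-fold), TNNT2 (2.88-fold), ACTC1 (2.52-fold) and MEF2C (2.21-fold) were higher, and HAND1 (4.63-fold) and TBX5 (2.38-fold) were lower. These 4 of 8 higher and 2 of 8 lower stand beside 4.78% and 2.19% of 10401 measured genes. MYL7 differed by 1.11-fold and MYH6 by 1.44-fold. With N1 in place of N2 as the earlier array, ACTC1 (3.66-fold) and MEF2C (2.37-fold) were higher, while MYL4 was 1.2-fold lower and TNNT2 1.41-fold higher. In that comparison 2 of 8 members were past 2-fold on each side, with MYL7 and HAND1 the lower ones, beside 8.42% higher and 6.67% lower of 10652 measured genes. On the brightest probe sets, the higher N3 signal of MYL4 and TNNT2 was therefore past 2-fold against N2 and not against N1. That of ACTC1 and MEF2C was past it against both. A second MEF2C probe set was 1.83-fold higher in N3 than in N2, and the next 2.8-fold.

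**Figure D3:**
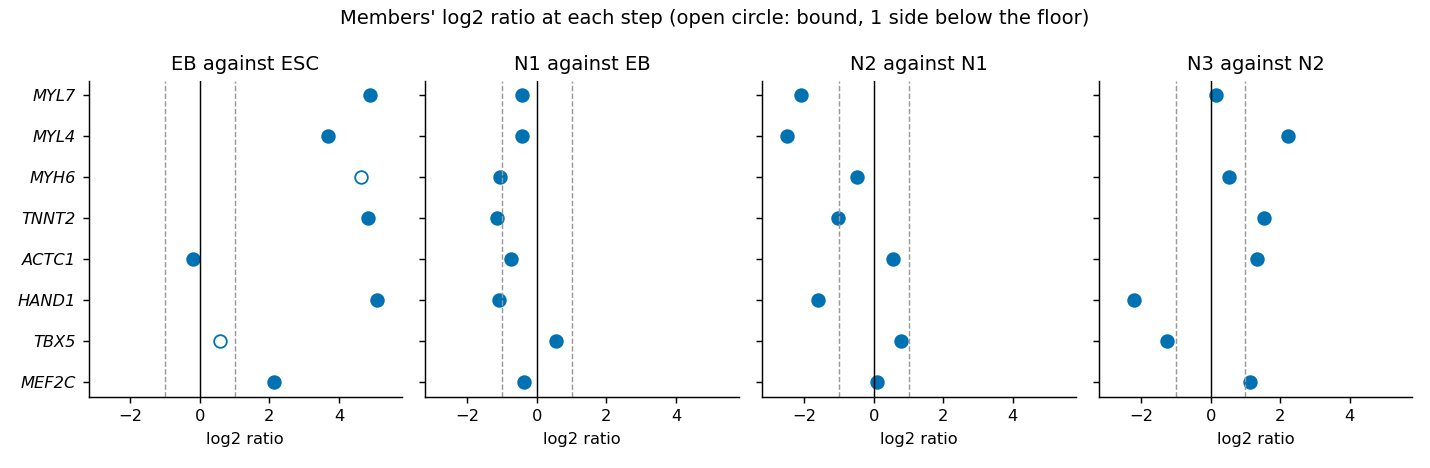
log2 ratio of the brightest probe set of each of the 8 members at the 4 steps between adjacent stages (x axis; dashed lines, 2-fold either way; open circles, bounds with 1 array below the floor). In EB against ESC 6 members lie beyond 2-fold on the higher side, and in N3 against N2 4 lie above and 2 below.

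Over the whole course, N3 was 2-fold or more higher than ESC for 5 of 8 members and lower for 0, beside 17.2% higher and 16.4% lower of 11232 measured genes. TNNT2 was 18-fold, MYH6 at least 12.3-fold, MEF2C 8-fold, MYL4 7.94-fold and MYL7 5.66-fold higher. Against EB, N3 was lower for 3 of 8 members, HAND1 (29.3-fold), MYL7 (5.2-fold) and MYH6 (2.03-fold), and higher for 1, ACTC1 (2.17-fold), where 11.2% of 10498 measured genes were lower and 13.0% higher. The call for MYH6 sits at the threshold: its next probe set was 1.17-fold lower, and the log2 ratio was -0.23 as the median of its probe sets and -0.93 after scaling to hybridisation controls. Equal medians on all arrays put the median of all measured genes at -0.43 instead of -0.07, and those counts then were 5 lower and 0 higher. These comparisons share arrays with the stepwise ones and are not further evidence for them.

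A course of 2-fold or more higher in EB than in ESC, lower again in N2 than in EB, and higher again in N3 than in N2 was looked for over all genes after the values of MYL4 and TNNT2 had been seen. Of 11642 genes that reached 100 on any array, 6 had it, or 0.0515%. They were MYL4, TNNT2, TNNC1, TNNI1, PRICKLE2 and LOC699612. TNNC1, the calcium-binding troponin of heart and slow skeletal muscle, was 119 in ESC and 1058 in EB, then 364, 51 and 526 in N1, N2 and N3. TNNI1, the inhibitory troponin of slow skeletal and embryonic heart muscle, was 174 in ESC and 867 in EB, then 1185, 406 and 2239 in N1, N2 and N3. MYL4 and TNNT2 are among the 6 because the course was taken from them. PRICKLE2, a planar cell polarity gene, reached no more than 290.4. A signal in N2 2-fold or more below both neighbouring stages was found for 1.23% of the same genes, and for MYL4 and TNNT2 among the 8 members. With N1 as the low array, the course was found for 8 genes, or 0.0687%, with 0 members and 0 of the 6 genes among them.

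Other sarcomere genes of the heart did not all follow the members. Of 18 listed, 16 have a probe set, and 5 of the 13 measured in EB against ESC were 2-fold or more higher and 2 lower. Their median log2 ratio was 0.66, and the shares over all measured genes were 12.1% higher and 11.8% lower. TNNC1 was 8.92-fold, TNNI1 4.97-fold and MYL3 at least 3.96-fold higher, and NEXN, which encodes an actin-binding protein of the Z-disc, was 3.45-fold lower. In N3 against EB, 5 of 13 were higher and 2 lower, with a median of 0.93, beside 13% higher and 11.2% lower of all measured genes. The Z-disc genes MYOZ2 (7.43-fold), CSRP3 (5.13-fold) and ACTN2 (4.23-fold) were higher in N3, and MYL3 was at least 3.96-fold lower. Titin, TTN, stayed at 1.89 to 93, below the floor on each array.

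Calcium handling and conduction genes gave different courses on different probe sets. Of 14 listed genes 8 have a probe set, and on the brightest one the 6 that reached 200 on any array were highest in N3, where 20.2% of 9769 genes reaching 200 were highest. Other probe sets of 4 of these 6 peaked elsewhere. Those of ATP2A2 (868 in ESC, 666 in N3), KCNQ1 (264 in ESC, 155 in N3) and KCNH2 (243 in ESC, 217 in N3) were highest in ESC, and that of RYR2 (212 in EB, 180.3 in N3) in EB. CASQ2, the calcium store protein of heart and slow muscle, was 33.1 in ESC and 89.7 in EB, then 161, 529.9 and 1982 in N1, N2 and N3. In EB against ESC 1 of 5 measured genes was 2-fold or more higher, beside 12.1% of all measured genes. It was the atrial gap junction gene GJA5, at least 4.07-fold. In N3 against EB 2 of 7 were higher, beside 13% of all measured genes. These were CASQ2, by at least 19.8-fold, and the potassium channel gene KCNH2, by at least 6.03-fold. On 2 other probe sets of KCNH2, EB was also below the floor. Their log2 ratios were at least 0.22 (11.4 in EB, 116 in N3) and at least 1.12 (58.3 in EB, 217 in N3). The atrial natriuretic peptide gene NPPA was 124 in ESC and 457 in EB, then 798, 374 and 557 in N1, N2 and N3. NPPB, the related peptide gene of the ventricle, was 3726 in ESC and 165 in EB, and below 100 afterwards.

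Heart transcription factors outside the set were 2-fold or more higher in EB than in ESC for 7 of 10 measured genes, and 0 were lower. Over all measured genes the shares were 12.1% and 11.8%. The median log2 ratio of the list was 2. GATA6, a zinc finger factor of heart and endoderm, was 23.9-fold higher, ISL1, a marker of heart progenitors and of motor neurons, at least 18.6-fold, TBX3 at least 18.4-fold and the atrial nuclear receptor gene NR2F2 at least 18.3-fold. In N3 against EB 2 of 10 were higher and 2 lower, not far from the 13% and 11.2% of all measured genes. GATA6 was 6.26-fold and TBX3 4.26-fold lower, like HAND1, whereas NR2F2 was 2.37-fold and IRX4 at least 2.8-fold higher. GATA4, a central heart factor, stayed at 44.8 to 286, with 276 in EB against 182 in ESC. Another GATA4 probe set was 27.2 in ESC and 258 in EB, a log2 ratio of at least 1.37. TBX20, TBX18, SMYD1 and BMP10 were below 100 on every array, and NKX2-5 was not analysed here.

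**Figure D4:**
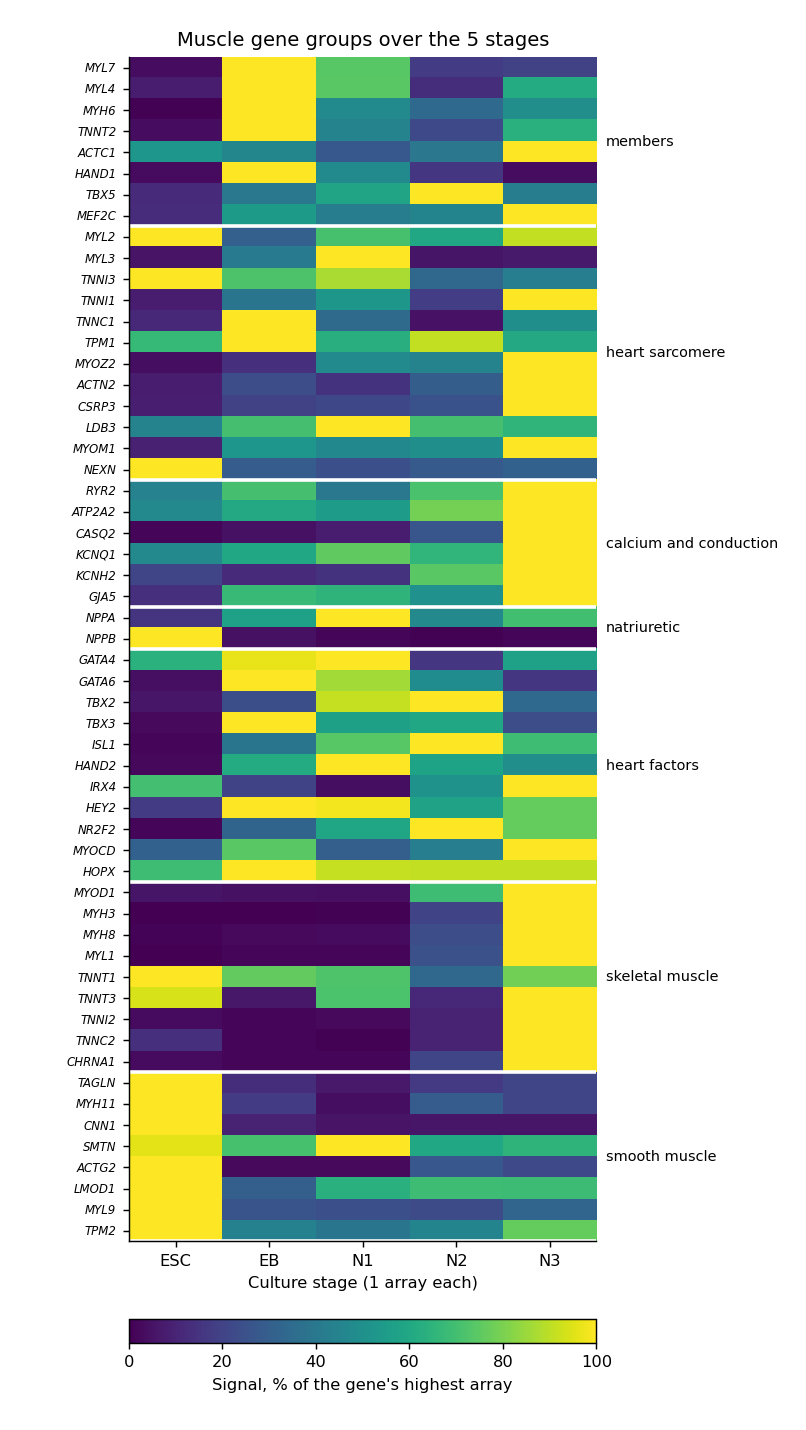
Signal by stage (x axis, 1 array each) as a percentage of each gene's highest array (colour), for the 8 members and for genes of 6 lists that reached 200 on any array. On the brightest probe sets 5 of 8 members peak in EB (21.0% of all 9769 genes reaching 200), 6 of 6 calcium and conduction genes and 8 of 9 skeletal muscle genes in N3 (20.2%), and 7 of 8 smooth muscle genes in ESC (33.7%). Other probe sets of 4 calcium and conduction genes peak in ESC or EB. Among the smooth muscle genes, another probe set of TPM2 (112.5 in ESC, 3192 in N3) and another of LMOD1 (136 in ESC, 183 in N3) peak in N3.

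Skeletal muscle genes were higher in N3, where MYL4, TNNT2, ACTC1 and MEF2C lay 2-fold or more above N2 on their brightest probe sets. Of 13 listed genes with a probe set, 2 lay at 100 or more in EB, 8 in N2 and 9 in N3. Over all 14132 named genes these counts were 9551, 9888 and 9950, so those of the list in N2 and N3 were near the general share. The summed signal of the list was 2620.2 in EB and then 2809, 8118 and 34632 in N1, N2 and N3. MYH3, the embryonic skeletal heavy chain, was 38.3 in ESC and 14.2 in EB, then 103, 2905 and 14054 in N1, N2 and N3. MYL1, the fast skeletal light chain, was 45 in ESC and 145 in EB, then 188, 2974 and 12049 in N1, N2 and N3. EB, the array where 5 of the 8 members and 21.0% of 9769 genes reaching 200 were highest, was thus low for both, and N3 was high for both.

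MYOD1, the skeletal muscle determination factor, was below 20 in ESC, EB and N1, 221 in N2 and 322 in N3, while MYF5 and MYF6 were below 100 on every array and MYOG was not analysed here. Against EB, 8 of 9 measured skeletal genes were 2-fold or more higher in N3 and 0 lower, beside 13% and 11.2% of all measured genes. Among the 8 were MYH3 (at least 141-fold), MYL1 (82.9-fold), TNNC2 (at least 35.4-fold) and MYH8 (at least 9.83-fold). In N2, where MYL4 was 248 and TNNT2 864, MYH3 and MYL1 were already at 2905 and 2974. The part of skeletal muscle RNA in the N3 signal of the members was not tested. In EB against ESC, 0 of 5 measured skeletal genes were higher and 2 were lower, beside 12.1% and 11.8% of all measured genes. The 2 listed genes at 100 or more in EB were MYL1 at 145 and TNNT1, the slow skeletal troponin T, at 2185.

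Profiles over the 5 arrays were compared by the root mean square distance between log2 signals centred on each gene's mean, among 1765 genes that reached 200 and ranged over 4-fold. This left 6 members, since ACTC1 and TBX5 ranged less. MYH6 and TNNT2 were close to each other at a distance of 0.32, and the developmental homeobox gene MSX1 and the G protein regulator gene RGS4 were the other 2 nearest to each. For MYH6 these lay at 0.34 and 0.31, and for TNNT2 at 0.55 and 0.57. MYL4 was nearest to LOC699612 (0.53), TNNC1 (0.54) and TNNT2 (0.66).

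The other 3 members had other nearest genes. HAND1 was nearest to the peptidase gene MEP1A (0.32), the kynurenine pathway gene KYNU (0.35) and the plasminogen gene PLG (0.35). PLG was 10.8 in ESC and 3358 in EB, then 2509, 811 and 68.1 in N1, N2 and N3. MYL7 was nearest to the iron exporter gene SLC40A1 (0.45), GLUD1 (0.5) and SMCO3 (0.52), with MYH6 the 26th of its neighbours and TNNT2 the 47th. MEF2C was nearest to ZNF703 (0.21), GJA5 (0.21) and the small muscle protein gene SMPX (0.22), and SMPX was 27.7 in ESC and 473 in EB, then 383, 274 and 916 in N1, N2 and N3. These distances describe 5 arrays, and they carry no test.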

How the data were processed

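RNA of 5 culture stages was labelled with biotin and hybridised to 1 Affymetrix rhesus array each. The deposited values are linear intensities made by the authors with GCOS 1.0, according to the submitters' processing notes. Which algorithm and scaling target they chose is not given in the sources used here. The 2% trimmed mean of the deposited intensities was 199.1 to 199.3 on the 5 arrays, so they had been scaled.

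The arrays were brought to a trimmed mean of 500, floored at 100 and put on a log2 scale (python 3.11.15, pandas 2.3.3). Genes were named from GEO's platform annotation, whose symbols may be out of date. Of 52865 probe sets 24969 had 1 symbol (24956 without array controls), 361 several and 27535 were unlisted. All 8 members matched a RefSeq gene of the same symbol. A gene was read from its brightest probe set by mean log2 signal. A gene was measured in a comparison when it reached 100 on either array, and was counted at 2-fold. The members and 13 gene lists were chosen with earlier results of these data known. Named list genes were taken from the 4 with the largest ratio in EB against ESC and in N3 against EB, relatives of the members, 10 genes given whatever their values, and the 3 nearest profiles of a member. Not all genes that met the rule on ratios are named, for example TIE1 of the endothelial list and CNN1, TAGLN and MYH11 of the smooth muscle list. PRICKLE2, LOC699612, TBXT, FEV, ATP2A2, KCNQ1, RYR2 and genes given as below the floor were named after their values were seen. With 1 array per stage there is no test, and the number of arrays limits the precision. Ratios and counts were checked on simulated arrays that held only 4-fold changes, in genes well above the floor, in EB against ESC. Differences of 2-fold and signals near the floor were not covered by that check. Alternatives were 4 scalings, 3 floor settings, 2 probe set rules and a 4-fold threshold, and N1 in place of N2 was added after seeing the data. The SD between probe sets is that of the difference between the 2 brightest sets of a gene, divided by the square root of 2.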

Additional observations from a re-analysis of the deposited data

How the results depend on the processing

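The 13 counts of members were recomputed under each alternative, and 117 of 133 values stayed within 1.5 times the count given first. The 117 include counts of 0 that stayed 0, and a count of 6 of 8 could not rise past 1.5 times, so this number is no measure of stability by itself. With the hybridisation controls, 1 member was higher and 0 lower in N1 against EB. With equal medians, 0 were higher and 5 lower in N3 against EB. Members lower in N3 against N2 numbered 1 with values as deposited, with a floor of 200 and with the median of probe sets. At 4-fold, 0 members were lower in N1 against EB, 2 lower in N2 against N1, 1 higher and 1 lower in N3 against N2, and 0 higher in N3 against EB. With N1 in place of N2, 2 members were higher in N3. The course of higher, lower and higher again held for 1 member at 4-fold, for 0 with N1 in place of N2, and for 1 without _x_at and _s_at probe sets, where MYL4 has no probe set left. It was found for 5 to 14 genes in 8 settings, for 2 at 4-fold and for 92 with no floor.

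Of 413 recomputed log2 ratios of single members, 375 moved by less than the SD between probe sets and 38 by more, and 0 of those past 2-fold changed sign. For MYH6 in EB against ESC the log2 ratio ran from 2.73 with the median of probe sets to 7.37 with no floor and 1 added to each signal, since its ESC signal lies far below the floor. No paired analysis was possible because each stage has 1 array. Signals near the floor, those of TBX5 above all, are the least firm.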

Other observations

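Other lineages that accompany the heart in the embryo had courses of their own. Of 9 early mesoderm genes measured in EB against ESC, 4 were 2-fold or more higher and 1 lower, beside 12.1% and 11.8% of all measured genes. The homeobox genes MSX2 (at least 21.8-fold) and MSX1 (14.5-fold) and the forkhead gene FOXF1 (at least 4.07-fold) were higher. The other probe sets of MSX2 had log2 ratios of 1.37 to at least 4.45. EOMES, a factor of the primitive streak, was 3.52-fold lower. TBXT, the brachyury gene of nascent mesoderm, was 235 in EB and below 100 on the other arrays. In N3 against EB 4 of 7 were lower, among them BMP4 (4.36-fold), and 0 higher, beside 11.2% lower and 13% higher of all measured genes.

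On their brightest probe sets, endothelial genes were 2-fold or more higher in EB than in ESC for 5 of 5 measured genes and lower in N3 than in EB for 5 of 5. Over all measured genes 12.1% were higher in EB against ESC and 11.2% lower in N3 against EB. KDR and VWF, also in the list of 7, were below 100 on every array and so were not measured. Another probe set of TEK went the other way in both comparisons, at log2 ratios of -1.53 and 0.69. Another of CDH5 was 54.3 in ESC, 110 in EB and 55.8 in N3. Its log2 ratios are therefore only bounds, at least 0.13 and at most -0.13. PECAM1, an endothelial adhesion gene, was 126 in ESC and 1291 in EB, then 523, 300.3 and 60.9 in N1, N2 and N3. In the epicardium and mesothelium list ALDH1A2, which makes retinoic acid, was 50.2 in ESC and 1179.6 in EB, then 3073, 2812 and 1335 in N1, N2 and N3, and WT1 was 73.7, 317, 1137, 709 and 406 over the same stages. Both were highest in N1, after the EB peak of MYL7, MYH6 and TNNT2. UPK3B of the same list went the other way, at 419 in ESC and 74.7 in EB, at least 4.19-fold lower, and no more than 113 afterwards. MSLN was 125 in ESC and below 100 on the other arrays, and TCF21 was below 100 throughout. In EB against ESC 2 of 4 measured genes of the list were 2-fold or more higher and 1 lower, beside 12.1% and 11.8% of all measured genes.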
